A study of Mus musculus with 6 samples.

Results

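A stretch of mouse chromosome 11 holding 51 expressed protein-coding genes was examined in MB49 bladder cancer cells, comparing cells labelled CRISPR Y-KO with CRISPR Y-Scr controls. The members are the protein-coding genes of chromosome 11 with a gene start from 76120987 to 79623163 (GRCm38) and at least 60 counts summed over the 6 libraries, leaving out names that start with Rpl, Zfp or Slc25. They were 51 of 54532 genes in the table, and of 10784 that met the criteria other than position. The segment was picked because its genes had been seen to be raised in Y-KO, so the changes below are a description of that choice, and no p-value is given for a member.

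Both groups were MB49 cells (the labels give the tissue as MB49 tumor), a bladder cancer line of male mouse origin. Both were made from its Y-positive form. Y-Scr was made with a non-targeting guide RNA, and Y-KO carries the genotype label CRISPR Y-KO. The labels' protocols state that transduced cells were sorted on tRFP and grown as single-cell clones, without saying how many clones stand behind a group or whether replicates were separate cultures or clones, so errors may be technical. Each group had 3 libraries, all labelled batch 1, with 15698510 to 24633158 counts.

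The 7 Y genes checked had 0 counts in every Y-KO library and summed to 371 to 431 CPM in Y-Scr, where CPM is a count scaled to the library's TMM-adjusted size. Of 10 urothelial and epithelial markers, Krt8 and Krt18 made up nearly all of a sum of 3350 to 3720 CPM in Y-Scr and 4010 to 4320 CPM in Y-KO, while Upk3a, Krt20 and Epcam had 0 counts. Of 12 blood cell markers, 8 had 0 counts, among them Ptprc, Cd3e and Itgam, and Cd68 carried nearly all of the sum (108 to 116 CPM in Y-Scr, 95.4 to 101 CPM in Y-KO). The 4 endothelial markers summed to under 1 CPM in each library, and the 5 fibroblast markers to 11.6 to 15.4 CPM in Y-Scr and 17.7 to 20.7 CPM in Y-KO. The part of these shifts in the changes of the segment was not tested.

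A chromosomal segment has no function of its own: its genes sit side by side and can serve unrelated tasks. When the dose of a whole segment changes, the transcripts of many of its genes tend to shift together and by similar amounts, whereas regulation by a transcription factor moves single genes that carry the matching elements. The genes here range from Supt6, a histone chaperone that travels with elongating RNA polymerase, to the mitotic spindle gene Spag5, the inducible nitric oxide synthase gene Nos2 and the RAS inhibitor gene Nf1. DNA copy number was not measured in these samples.

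Promoter windows of 300 bases (250 before to 50 after a gene start) from RefSeq on GRCm38.p6 matched 47 of 51 members; Fam57a, Fam58b, Nos2 and Evi2a had no match. Of several windows of a gene, the nearest to its deposited start was used. The next sequences belong to a head-to-head pair whose members changed by different amounts. Supt6 (chr11:78245654-78245953, minus strand) and Sdf2 (chr11:78245496-78245795, plus strand) share 142 bases, in capitals, read here on opposite strands.
Supt6: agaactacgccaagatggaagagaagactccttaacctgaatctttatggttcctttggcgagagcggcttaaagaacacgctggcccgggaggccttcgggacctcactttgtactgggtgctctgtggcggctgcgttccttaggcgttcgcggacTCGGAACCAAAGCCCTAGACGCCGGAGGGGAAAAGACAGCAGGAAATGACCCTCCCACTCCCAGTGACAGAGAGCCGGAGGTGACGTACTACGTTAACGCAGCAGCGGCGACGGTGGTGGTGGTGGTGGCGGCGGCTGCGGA
Sdf2: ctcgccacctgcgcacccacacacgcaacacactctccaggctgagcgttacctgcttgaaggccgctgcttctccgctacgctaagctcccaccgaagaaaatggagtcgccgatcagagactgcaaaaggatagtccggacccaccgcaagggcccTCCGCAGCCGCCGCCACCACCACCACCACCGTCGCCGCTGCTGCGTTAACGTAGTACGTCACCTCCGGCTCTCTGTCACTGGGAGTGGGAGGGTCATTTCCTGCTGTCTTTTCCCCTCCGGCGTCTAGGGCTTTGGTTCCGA

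The other pair of windows is shown for a gene with a large rise and for one that fell. In 2610507B11Rik (chr11:78261504-78261803, plus strand), which encodes a bridge-like lipid transfer protein, capitals mark the letters GGGCGG of a GC box on either strand. In Lgals9 (chr11:78984875-78985174, minus strand), a galectin gene known to respond to interferon, capitals mark GAAA, any 2 bases and GAAA again, part of interferon response elements, found here on the other strand.
2610507B11Rik: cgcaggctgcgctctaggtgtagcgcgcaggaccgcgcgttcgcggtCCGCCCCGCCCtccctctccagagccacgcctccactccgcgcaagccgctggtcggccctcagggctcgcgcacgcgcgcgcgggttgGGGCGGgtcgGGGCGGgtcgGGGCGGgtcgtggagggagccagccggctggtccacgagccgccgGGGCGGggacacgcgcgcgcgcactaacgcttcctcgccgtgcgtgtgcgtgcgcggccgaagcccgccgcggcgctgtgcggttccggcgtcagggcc
Lgals9: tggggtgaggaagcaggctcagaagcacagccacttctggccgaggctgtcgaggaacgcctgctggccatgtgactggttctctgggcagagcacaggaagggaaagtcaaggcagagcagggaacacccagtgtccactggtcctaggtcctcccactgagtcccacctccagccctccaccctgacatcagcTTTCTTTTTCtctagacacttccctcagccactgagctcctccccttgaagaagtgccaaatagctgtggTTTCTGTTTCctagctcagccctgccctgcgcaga

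A GC box was found in 36 of 47 member windows (76.6%) and in 42.8% of all 20480 windows searched, 1 per gene. The paired GAAA pattern was in 1 of 47, that of Lgals9, and in 3.37% of all. TATAAA was in 0 of 47, against 13.2% of all. The windows of all genes were not limited to protein-coding genes with at least 60 counts, as the members were. Whether the members differ from other expressed genes in these shares was not tested. Each motif was searched on both strands, none overlaps another in letters, and a match is no proof of a working site.

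The members stood higher in Y-KO on balance, by an uneven amount. Their median log2 fold change (Y-KO minus Y-Scr) was 0.24, against -0.01 over all 12907 tested genes and 0.04 over the 863 tested genes of the rest of chromosome 11 chosen by the same criteria. All 51 members passed the filter on low counts. In edgeR's quasi-likelihood test with Benjamini-Hochberg adjustment over all genes, 25 of 51 were higher at an adjusted p under 0.05, where 20.7% of all tested genes were, and 4 were lower, where 23% of all were. Since the contrast chose the segment, nothing further is read from these counts. Counts are relative to the library total, so they give no absolute amounts. Each library pools cells, so more RNA per cell and more cells with the transcript cannot be told apart.

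**Figure D1:**
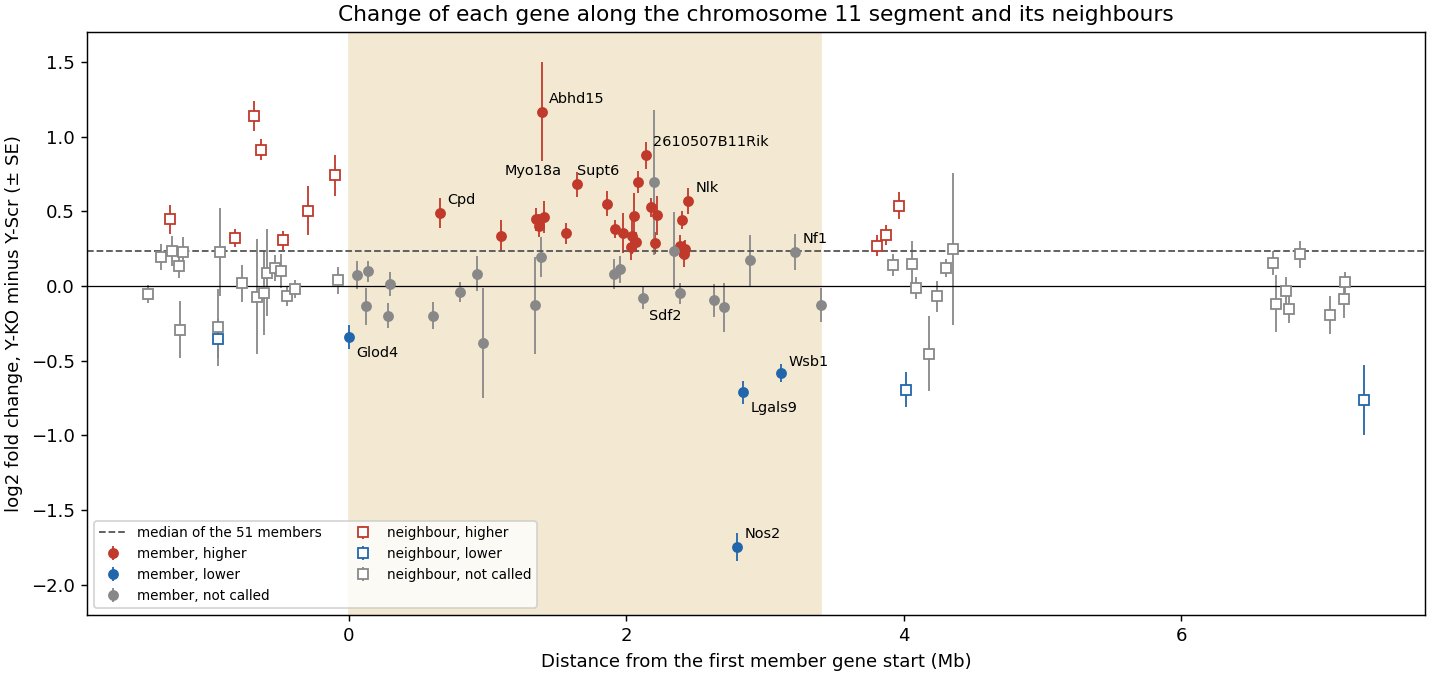
Log2 fold change (Y-KO minus Y-Scr, ± SE, n = 3 per group) of the 51 members (circles, shaded) and their neighbours (squares) against distance in Mb from the first member's start. Red and blue mark genes called higher or lower, the dashed line is the members' median of 0.24, and 4 neighbours below the axis (Ccl2, Ccl7, Slfn8 and Slfn2) and 1 that was not tested (Ccl8) are not drawn.

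By library, the values describe the same contrast that chose the segment. Relative to the mean of the Y-Scr libraries, the median member stood at 0.01, -0.02 and 0.00 (log2) in Y-Scr 1, 2 and 3, and at 0.27, 0.23 and 0.23 in Y-KO 1, 2 and 3. All 3 Y-KO medians lay above all 3 Y-Scr medians. Since this contrast chose the segment and the values are relative to Y-Scr, nothing is read from that order. The summed level of the members was 2873, 2764 and 2784 CPM in Y-Scr and 3270 (3269.7), 3336 and 3250 (3250.1) CPM in Y-KO, a ratio of 1.17. For 24 members every Y-KO library was above every Y-Scr library (25.4% of all tested genes), and for 7 every Y-KO library was below (27.5% of all).

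The shift was not even. Member changes ran from -1.75 (Nos2) to 1.17 (Abhd15), with an interquartile range of 0.51, close to the 0.54 of all tested genes. Among genes chosen by the same criteria, that range was 0.47 on the rest of chromosome 11 and 0.51 over all chromosomes. Of the 51, 24 lay within 2 SE of the members' own median, 13 lay above that band and 14 below. For scale, levels that follow gene dose would move by 0.415 (log2) from 3 to 4 copies and by 0.585 from 2 to 3. Within 2 SE of 0.415 lay 25 members, with 22 below and 4 above, and within 2 SE of 0.585 lay 15, with 35 below and 1 above. Each of these 3 references thus left more members outside its band than inside.

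**Figure D2:**
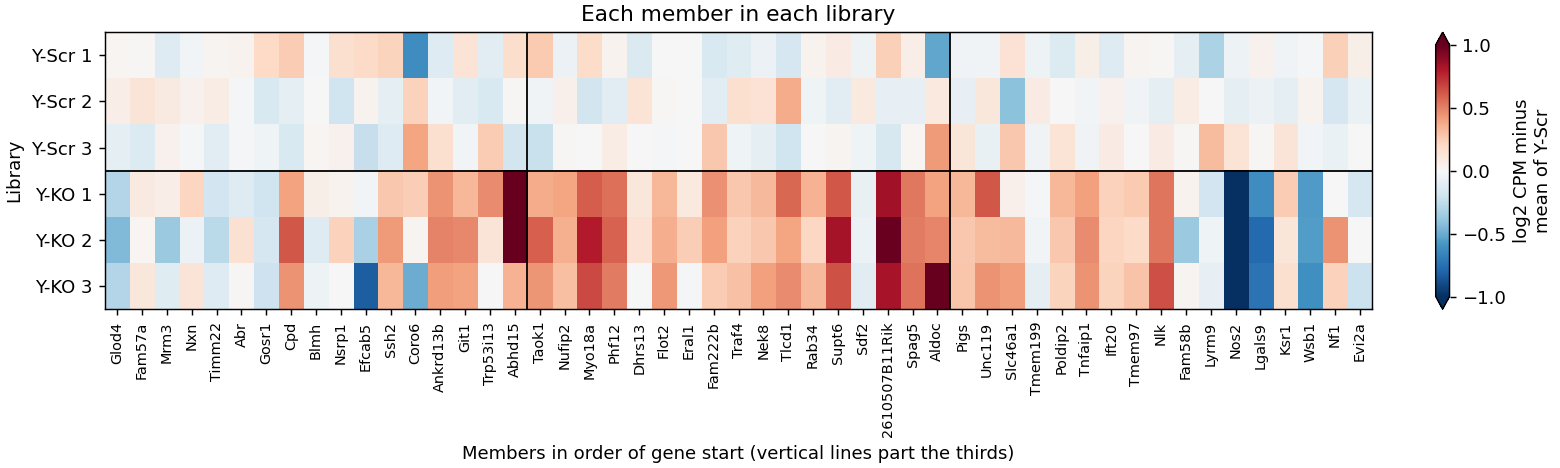
Log2 CPM of each member (columns, in order of gene start) minus its Y-Scr mean, in each of the 6 libraries (rows), with colours that saturate at 1 and -1; vertical lines part the first, middle and last 17 members. The Y-KO rows are red across nearly all of the middle 17 and mixed on either side, with Nos2, Lgals9 and Wsb1 blue in every Y-KO library.

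By position, the rise was concentrated in the centre. The calls by position stand beside 20.7% of all tested genes called higher and 23% lower, in a segment picked for being raised. Among the first 17 members, from Glod4 to Abhd15, 5 were higher and 1 lower, with a median of 0.07. The middle 17, from Taok1 to Aldoc (77529162 to 78327781), had a median of 0.38 and an interquartile range of 0.26 (0.255); 16 stood above 0, 13 were called higher and 0 lower. The last 17, from Pigs to Evi2a, had 7 higher and 3 lower, with a median of 0.22. In the middle 17 the library medians lay within 0.002 of 0 in Y-Scr and stood at 0.40, 0.39 and 0.43 in Y-KO, and 11 of the 17 lay within 2 SE of 0.415, with 3 above and 3 below.

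The longest run of neighbouring members above 0 was 17 genes long, from Ankrd13b to Supt6 (77470485 to 78245987), with values from 0.08 to 1.17 and 14 calls. Sdf2 broke it, then 6 more members up to Slc46a1 stood above 0, and after Tmem199 another 5 up to Nlk. With the part of each library's values that followed gene length and GC content fitted and removed, Sdf2 and Tmem199 stood at 0.13 and 0.19, and the run was 31 members long, from Ankrd13b to Fam58b, with values from 0.08 to 1.14, where the median of all tested genes was 0.06. On the rest of chromosome 11, 50 consecutive runs of 17 genes chosen by the same criteria had medians from -0.21 to 0.26 and between 0 and 9 genes called higher. The segment and its split by position were chosen with these values in view, so the middle 17 are not ranked against those runs. Across the members, the change of a gene and that of its next neighbour had a Spearman correlation of 0.26 (n = 50 pairs, all from the same 6 libraries).

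The ends of the segment were not marked by a step. Of the first 2 members, Glod4, a glyoxalase domain gene (76120987 to 76243725), fell by 0.34 ± 0.08 (SE), and Fam57a stood at 0.07 ± 0.10. Just before them, Vps53 stood at 0.04 ± 0.09 and Rflnb rose by 0.74 ± 0.14. The last 2 members, Nf1 and Evi2a, stood at 0.23 ± 0.12 and -0.13 ± 0.11, and the next genes outside, Utp6 and the Polycomb gene Suz12, rose by 0.27 ± 0.07 and 0.34 ± 0.07. The 25 neighbours before the segment had a median of 0.12 with 7 higher and 1 lower, among them Wdr81 (1.14) and the spliceosome gene Prpf8 (0.91), named after their values were seen. The 25 after had a median of -0.05 over 24 tested, with 3 higher and 6 lower, beside 20.7% and 23% of all tested genes. The falls there, also named after their values were seen, included the chemokine genes Ccl2 (-2.39 ± 0.07) and Ccl7 (-2.86 ± 0.08), Slfn2 (-3.37 ± 0.14) and Slfn8, which had 106, 107 and 178 counts in Y-Scr and 0, 1 and 1 in Y-KO.

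**Figure D3:**
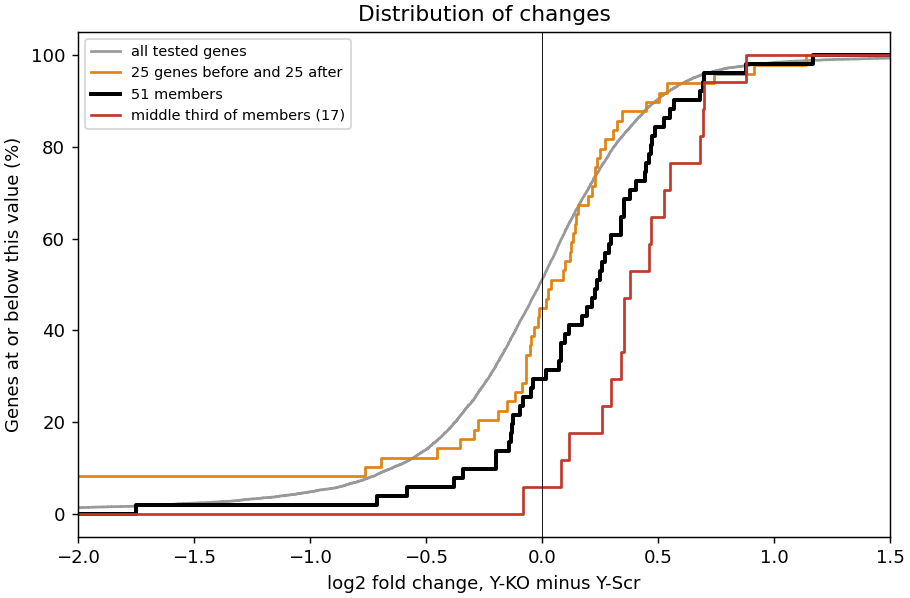
Cumulative share of genes (percent) by log2 fold change for all tested genes, the tested neighbours, the 51 members and the middle 17 members. The curve of the members lies right of that of all genes with a like slope (medians 0.24 and -0.01), and that of the middle 17 is steeper and further right (median 0.38).

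The counts by role below stand against 20.7% of all tested genes called higher and 23% called lower, in a segment picked for being raised, and nothing about a role is read from them. Among genes of RNA handling and translation, 2 of 5 members rose and 0 fell. Supt6 was measured at 86.4, 75.4 and 82.9 CPM in Y-Scr and 126, 145 and 127 CPM in Y-KO, a rise of 0.70 ± 0.07 (SE). All Y-KO libraries were above all Y-Scr libraries. Nufip2, which encodes an RNA-binding partner of the fragile X protein, rose by 0.35 ± 0.07. Mrm3, a mitochondrial rRNA methyltransferase gene (-0.14 ± 0.12), Eral1, which encodes a mitochondrial ribosome assembly factor (0.11 ± 0.09), and the splicing regulator gene Nsrp1 (0.08 ± 0.12) were not called. Phf12, a PHD finger gene of a histone deacetylase corepressor, rose by 0.55 ± 0.08, from 37.5, 34.1 and 38.6 CPM to 53.9, 55.1 and 52.6 CPM.

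Both members listed under DNA replication and division rose, though of these Nek8 acts at the cilium. Spag5, which encodes the spindle protein astrin, went from 90.2, 81.4 and 87.6 CPM in Y-Scr to 124, 124 and 126 CPM in Y-KO, a rise of 0.53 ± 0.06 (SE). The Y-KO libraries lay within a few CPM of each other and clear of Y-Scr. Nek8, a kinase gene of the cilium, rose by 0.34 ± 0.13 at a lower level, 11.5 ± 1.07 (SD, n = 3) to 14.5 ± 0.715 CPM.

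Of 13 signalling genes, 8 rose and 1 fell. Nlk, which encodes Nemo-like kinase, was measured at 26.9, 25.04 and 28.2 CPM in Y-Scr and 38.7, 38.7 and 41.7 CPM in Y-KO, a rise of 0.57 ± 0.09 (SE) with no overlap. Tnfaip1, an adaptor gene of a cullin ubiquitin ligase, rose by 0.45 ± 0.06, from 115, 109 and 108 CPM to 147, 153 and 151 CPM. Unc119, whose product carries lipid-modified proteins, rose by 0.47 ± 0.13, the scaffold gene Git1 by 0.40 ± 0.08 and Ankrd13b, an ankyrin repeat gene, by 0.45 ± 0.07. Taok1, a kinase gene, rose by 0.46 ± 0.11 with wide spread: 108, 87.8 and 77.0 CPM in Y-Scr and 116, 136 and 122 CPM in Y-KO. Ssh2, a cofilin phosphatase gene (0.34 ± 0.11), and Traf4, a signalling adaptor gene (0.26 ± 0.08), rose by less.

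Wsb1, which encodes the substrate-binding part of a ubiquitin ligase, went the other way. It stood at 190.1, 196 and 188 CPM in Y-Scr and 129.5, 129.7 and 125 CPM in Y-KO and fell by 0.58 ± 0.06 (SE). Nf1, the RAS inhibitor gene, had overlapping groups, 51.8, 39.2 and 41.9 CPM in Y-Scr against 44.1, 59.99 and 51.7 CPM in Y-KO. Leaving out Y-Scr 1 or Y-KO 1 moved Nf1 from 0.23 to 0.36 or 0.34 and past the threshold. The MAP kinase scaffold gene Ksr1 (0.17 ± 0.17) and Trp53i13 (0.19 ± 0.14) were not called.

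Among 12 genes of membrane traffic and the cytoskeleton, 7 rose and 0 fell, while Gosr1, Timm22 and Sdf2, which were not called, had every Y-KO library below every Y-Scr library. The level of 2610507B11Rik (ENSMUSG00000010277, 78261752 to 78290623) was 212, 169 and 161 CPM in Y-Scr and 320.5, 356 and 318 CPM in Y-KO, a rise of 0.88 ± 0.09 (SE). Y-Scr 1 was the highest of its group and still well below each Y-KO library. Flot2, which encodes a flotillin of membrane rafts, rose by 0.38 ± 0.06, from 128, 129 and 126 CPM to 161, 164.5 and 172 CPM. Rab34, a small GTPase gene, rose by 0.30 ± 0.06, from 109, 103 and 106.5 CPM to 135, 122 and 133 CPM. Both had tight groups with no overlap.

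Myo18a, an unconventional myosin gene, rose by 0.68 ± 0.08 (SE), from 91.2, 70.7 and 80.5 CPM to 122, 139 and 127 CPM. Once changes that followed length and GC content were taken out of each library, it stood at 0.29. The carboxypeptidase gene Cpd (0.49 ± 0.10), Pigs, a gene of GPI anchor attachment (0.29 ± 0.08), and the ciliary transport gene Ift20 (0.22 ± 0.09) rose as well. Gosr1, a Golgi SNARE gene (-0.20 ± 0.09), Timm22, of mitochondrial protein import (-0.20 ± 0.08), Tmem199 (-0.05 ± 0.07) and Coro6 (-0.13 ± 0.33) were not called.

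Sdf2, which encodes a protein of the endoplasmic reticulum and shares its promoter region with Supt6, stood at 67.2, 74.5 and 67.55 CPM in Y-Scr and 66.3, 66.97 and 64.35 CPM in Y-KO (-0.08 ± 0.07 SE). Every Y-KO library was slightly below every Y-Scr library, while Supt6 was higher in every one. The deposited coordinates put the Sdf2 start -241 bases from the Supt6 start, so that the genes overlap, whereas the RefSeq start behind the printed Supt6 window lies 43 bases from that of Sdf2 with no overlap, and whether reads were counted by strand is not stated. Of 6 head-to-head pairs with starts within 1000 bases, both members rose in 2 (Nek8 with Tlcd1, Tnfaip1 with Ift20). In Tmem199 with Poldip2 the values were -0.05 and 0.27, and in Glod4 with Mrm3 they were -0.34 and -0.14.

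Of 11 metabolic genes, 4 rose and 1, Glod4, fell. Tmem97, which encodes a membrane protein tied to cholesterol handling and has the highest level per kb of length among the members (81.7 CPM per kb), rose by 0.25 ± 0.06 (SE), from 104.5, 100.2 and 103 CPM to 123, 117 and 125 CPM. Poldip2, a gene named for its binding to DNA polymerase delta, rose by 0.27 ± 0.07 and Tlcd1 by 0.47 ± 0.15. Abhd15, an adipocyte lipolysis gene with the largest rise of all members (1.17 ± 0.33), was weakly expressed: 1.645, 1.45 and 1.253 CPM in Y-Scr and 3.76, 4.11 and 1.87 CPM in Y-KO. It overlaps Taok1 and Trp53i13 on the opposite strand, so its counts are uncertain, and without Y-KO 2 it stood at 0.97 and was not called. Aldoc, a glycolytic aldolase gene with 77 counts in all, the fewest of the members, stood at 0.70 ± 0.48 with overlapping groups. Blmh (-0.04 ± 0.07), Nxn (0.10 ± 0.07), Dhrs13 (0.08 ± 0.10) and the folate transporter gene Slc46a1 (0.24 ± 0.26) were not called.

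Of 3 secreted and immune members, Nos2 and Lgals9 fell and 0 rose. Nos2 (78920787 to 78960254), which makes nitric oxide in inflamed tissue, was measured at 66.95, 65.1 and 76.3 CPM in Y-Scr and 19.8, 22.8 and 19.5 CPM in Y-KO, a fall of 1.75 on the log2 scale with an SE of 0.09. Lgals9, which neighbours it, went from 84.0, 78.3 and 82.0 CPM to 52.8, 47.5 and 48.8 CPM and fell by 0.71 ± 0.08 (SE). Their nearest members on either side, Lyrm9 and Ksr1, were not called, and Wsb1 lies just beyond Ksr1. Evi2a, which lies within Nf1 on the opposite strand, stood at -0.13 ± 0.11 with overlapping groups. Of the 4 members of other or little known function, Fam222b rose by 0.35 ± 0.13, though its groups overlapped (Y-Scr 3 at 14.83 CPM, Y-KO 3 at 14.67 CPM). Efcab5 (-0.38 ± 0.37, 152 counts), Fam58b (-0.09 ± 0.11) and Lyrm9 (-0.14 ± 0.17) were not called.

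**Figure D4:**
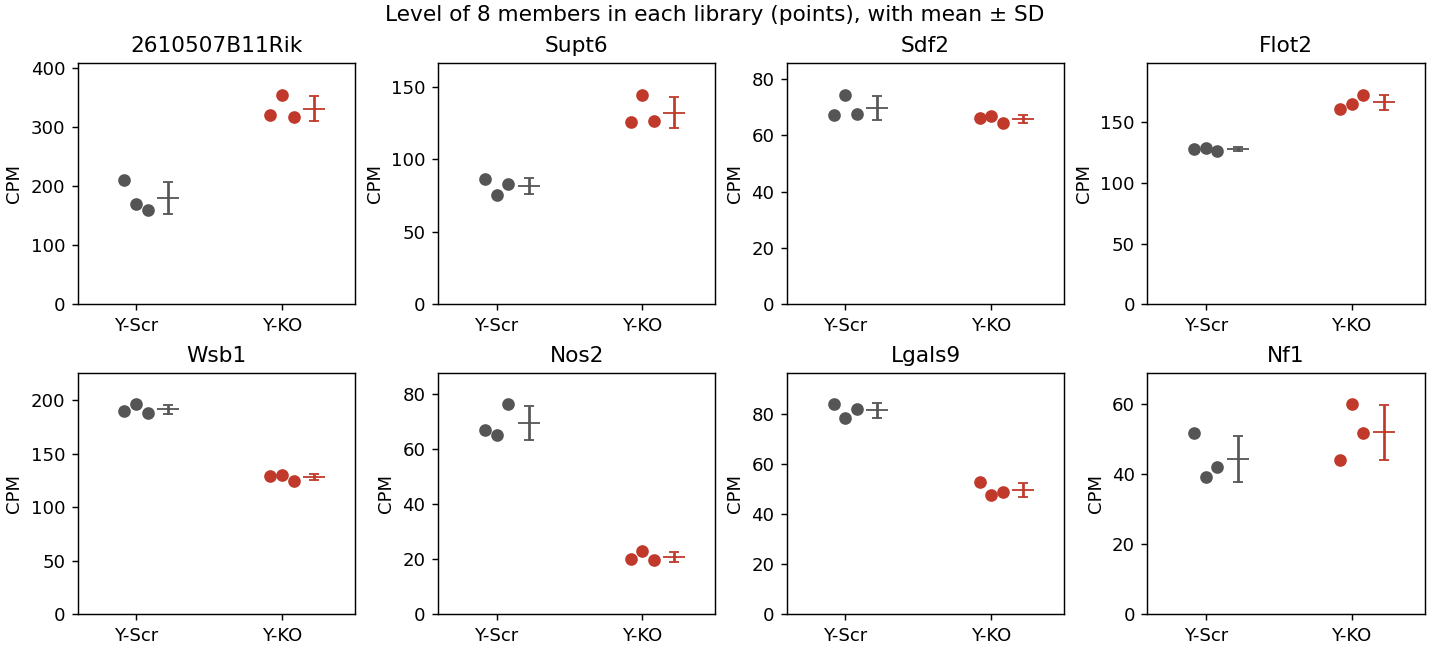
Level in CPM of 8 members in each library (points) with mean ± SD (n = 3) for Y-Scr and Y-KO; axes start at 0. Y-KO lay above Y-Scr for 2610507B11Rik, Supt6 and Flot2, below it for Wsb1, Nos2, Lgals9 and, narrowly, Sdf2, and overlapped it for Nf1.

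Genes of the range that the criteria left out gave similarly mixed values. By name, the ribosomal protein gene Rpl23a (0.05 ± 0.06 SE) and the pseudogene Rpl36-ps2 (-0.10 ± 0.56, 70 counts) were left out. Of 47 other genes that were not protein-coding, 4 had at least 60 counts: Gm12346, a pseudogene within Ssh2, rose by 0.47 ± 0.10, Dhrs13os, antisense to Dhrs13, rose by 2.13 ± 0.55, and 2210008F06Rik (0.04) and Rab11fip4os1 (-0.99) were not called. Another 23 protein-coding genes were under 60 counts, the nearest being Slc6a4 (52 counts) and Gemin4 (39), and just inside were Aldoc (77) and Efcab5 (152).

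Genes elsewhere whose products work with those of the members were tested as a list of 39 partners of Supt6, Timm22, Nf1, Git1 and Ift20, and 10 were higher and 8 lower (median -0.02), where 20.7% and 23% of all tested genes were. Among 9 elongation factor genes that work with Supt6, 4 rose and 3 fell: Ctr9 (0.51 ± 0.07 SE), Supt16 (0.48 ± 0.09) and Rtf1 (0.46 ± 0.09) rose, and Supt5 (-0.30 ± 0.06) was among those that fell. Of 8 RAS regulators, 3 rose, with Rasa2 at 0.44 ± 0.10 and Spred2 at 0.32 ± 0.08. Of 13 ciliary transport genes, 1 rose, Traf3ip1 (0.50 ± 0.14), and 4 fell, with Ift88 at -0.71 ± 0.18, while Ift20 in the segment rose. Of 5 partners of Timm22, 0 were called, and of 4 of Git1, Git2 (0.21 ± 0.07) and Pak2 (0.21 ± 0.07) rose and Arhgef7 (-0.23 ± 0.07) fell. Partner calls shifted with the settings, as did the shares over all genes. With the length and GC trend removed, 15 were higher and 6 lower, where 24.5% and 18.3% of all tested genes were. Without Y-Scr 2, 5 were lower (18.6% of all), and without Y-KO 3, 4 were lower (18.7% of all).

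A trend on length and GC content was fitted over the tested genes in each library and removed, and its strength over all genes was not measured. The members' GC content was higher than usual (median 52.5%, against 49.6% over all tested genes), as on the rest of chromosome 11 (52.5%). With each library's trend removed, the members' median was 0.25, and the median of all tested genes was 0.06. In that fit 25 members were higher and 5 lower, where 24.5% and 18.3% of all tested genes were. Of the 25 members called higher without the removal, 22 were still higher. The interquartile range of the members was then 0.42 and the median of the middle 17 was 0.37. The 8 members that changed side of 0, of which 0 had been called, included Sdf2, Tmem199, Evi2a (-0.13 to 0.19) and Ksr1 (0.17 to -0.05). Neighbouring members were then more alike (Spearman correlation 0.49, against 0.26), while the correlation of change with gene length went from 0.28 to 0.01 and with GC content from 0.25 to 0.06 (n = 51 members from the same libraries).

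**Figure D5:**
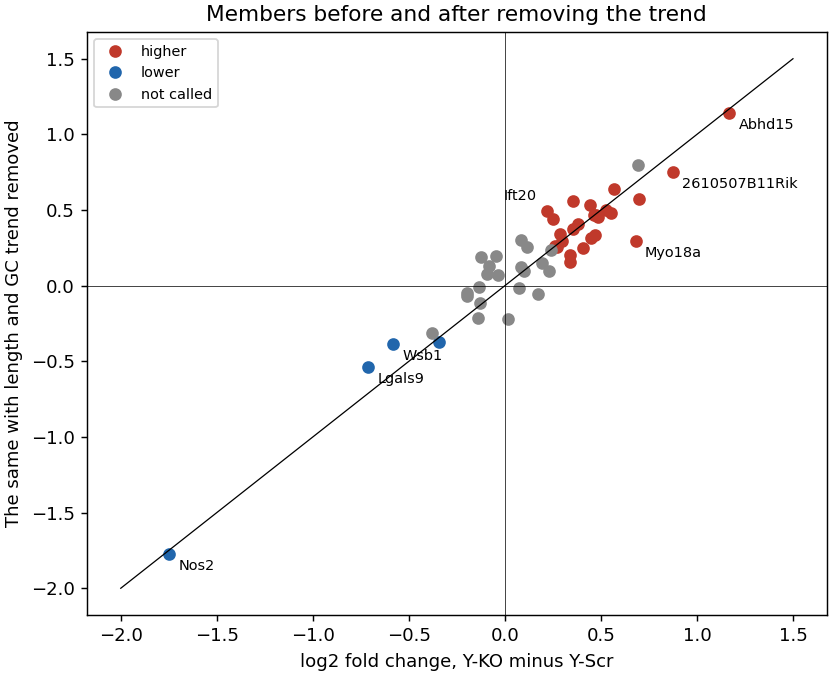
Log2 fold change of each member as fitted (horizontal) and with the length and GC trend removed (vertical), coloured by call; the line marks equal values. Most points lie near the line, 8 cross 0, and Nos2, Lgals9 and Wsb1 are low under both, while Myo18a went from 0.68 to 0.29 and Ift20 from 0.22 to 0.50.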

How the data were processed

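RNA of 6 MB49 libraries was sequenced after poly-A selection with a stranded kit, per the labels' protocols. The authors deposited whole-number read counts per gene, with no normalization, and gene lengths in bases as another column. The submitters' processing notes list STAR 2.5.2b and featureCounts 1.5.3 among the tools, with Trimmomatic 0.39, and name the builds GRCm39 and mm39. All 123 genes of the range had their GRCm38 coordinates (98.3% of genes in all), so GRCm38 is used. Whether counting used strand is not stated, so overlapping genes (15 members) are uncertain.

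The whole table was fitted with edgeR 4.0.16 in R 4.3.3 (TMM, filterByExpr, robust quasi-likelihood, group only, Benjamini-Hochberg, 0.05), after a check of the test on simulated data. CPM were computed on TMM-scaled library sizes. The alternatives were other scaling factors, DESeq2 1.42.0, other filters, a replicate block, removal of trends on length and GC content (natural splines, 4 degrees of freedom), each library left out, and other member criteria. Members and lists were chosen with earlier results of these data known, and further member roles, motifs and the splits by position were chosen after values were seen. Named are the 6 largest and 6 smallest changes, the 6 highest in counts, those at each end and examples of each role. Partner lists of genes that proved to lie outside the segment were not used.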

Additional observations from a re-analysis of the deposited data

How the results depend on the processing

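The members' median was above 0 in all 15 fits. The fits reuse the libraries of the contrast that chose the segment, so the counts below show only how calls depend on settings. Of the 25 members called higher, 17 were called in every fit, and so were the 4 called lower (Glod4, Nos2, Lgals9 and Wsb1). The others, Ssh2, Abhd15, Taok1, Fam222b, Traf4, Nek8, Tlcd1 and Ift20, lost the call at least once. Leaving out each library in turn gave a median of 0.213 to 0.26 and an interquartile range of 0.414 to 0.541. It left 20 to 23 members higher and 4 to 5 lower, and 7 to 11 partners higher and 4 to 9 lower. Of all tested genes, 16.2% to 21.2% were then higher and 18.6% to 22.7% lower. Without the first 5 and last 5 members the median was 0.296 and the interquartile range 0.386. Of the 41 members then counted, 25 were still higher and 1, Nos2, was lower. Glod4, Lgals9 and Wsb1, the other members called lower, were among those left out. With the length and GC trend removed the interquartile range was 0.417, and 0.421 together with the replicate block. Under the latter 5 partners were lower, where 17.3% of all tested genes were, and the cause was not tested. With no low-count filter, 11.1% of all genes were higher and 12.8% lower. More genes were then tested and the fit was redone on the larger set, and the cause of the drop was not tested. The replicate numbers did not pair the libraries: same-numbered libraries had deviations correlated at -0.064, -0.034 and -0.024. The replicate block gave 22 members higher and 4 lower, with a median of 0.249, where 18.1% and 20.4% of all tested genes were higher and lower. Depth limits Aldoc, Efcab5, Abhd15 and Coro6 most, whose SE was 0.33 to 0.48.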
